A study of Cenococcum geophilum 1.58 with 6 samples.

Results

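Carbohydrate-active enzymes (CAZymes) cut, modify or bind polysaccharides, and a fungus that lives on and in a root meets such polymers on both sides: the chitin and beta-glucans of its own wall, and the cellulose, hemicelluloses and pectins of the plant wall. Ectomycorrhizal (ECM) fungi are known for having fewer plant wall degrading enzymes than their saprotrophic relatives, while remodelling enzymes of the fungal wall are kept. CAZymes are sorted by sequence into families of glycoside hydrolases (GH), carbohydrate esterases (CE), auxiliary activities (AA, mostly oxidases), glycosyltransferases (GT) and carbohydrate-binding modules (CBM), and a family narrows the likely substrate without fixing it.

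The genes described are 38 secreted CAZymes of the ECM ascomycete Cenococcum geophilum, out of 14748 genes with counts. They are those of the study's 221 listed secreted proteins that it annotated as CAZymes (48 genes), without 10 cellulose- and pectin-acting enzymes that are left out here. The list was drawn up on differences in expression between ECM root tips and free-living mycelium (FLM), with poplar or with pine. The fold changes and calls of the 38 genes between poplar ECM and FLM are therefore a description of the values that chose them, with no test read from them. Families were given for 36 of the 38, and 4 of the 38 were also annotated as small secreted proteins. By family, 6 genes act on or bind chitin, 10 belong to beta-glucan and fungal wall families, 4 to cellulose and beta-glucoside families, 7 to hemicellulose families and 2 to pectin families, and 9 fit none of these. Because of the genes left out, the cellulose and pectin groups are not the full sets of the study's list.

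RNA-Seq was done on 3 libraries of FLM and 3 libraries of poplar ECM root tips, all from C. geophilum strain 1.58 and harvested at day 60. FLM was pure culture on a nutrient-poor medium with cellophane. Poplar ECM were root tips of 1 clone of Populus tremula x alba (INRA 717-1B4) colonised in vitro under the same conditions. Total fungal counts were 52305281 to 54586073 in FLM and 11197509 to 14396613 in poplar ECM. The 10 most counted genes took 4.12% to 4.89% of the counts in FLM and 7.61% to 19.9% in poplar ECM, and poplar ECM replicate 1 was run on the sequencer used for FLM while replicates 2 and 3 were run on a newer one. A root tip holds fungal cells of several kinds, so that fewer cells of a kind and less RNA per cell cannot be told apart, and all levels are relative to the fungal counts. The counts cover genes of 1 fungus only, so host markers could not be looked at.

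All 38 genes had at least 15 counts in every library and passed the filter on low counts (10 counts in at least 3 libraries). Normalized counts are counts per 1000000 scaled with edgeR's TMM factors. A gene was called with a log2 fold change over 1 in size and an adjusted p under 0.05 (edgeR's quasi-likelihood test, Benjamini-Hochberg over the 12692 genes tested). Of the 38, 23 were called up in poplar ECM, where 9.94% of all tested genes were, and 4 were called down, where 3.28% were. The other 11 were not called. Other settings of the fit are named at a gene where they changed its call, among them scaling by library totals only, which moved the median of all genes to -0.33, and a term for the sequencer. The exception is a test against the limit itself (glmTreat), which ended 14 of the 27 calls and is not named at each gene. No FLM library was run on the newer sequencer. With the sequencer as a term, the fold change is therefore that of poplar ECM replicate 1 alone against FLM. It cannot tell the sequencer apart from differences between poplar ECM replicates. The median log2 fold change of the 38 genes was 1.26, with a range from -2.39 to 5.38, beside a median of 0.01 over all tested genes. On normalized counts the groups did not overlap for 28 genes that were higher in poplar ECM (22.2% of all tested genes did so) and for 5 that were lower (21.4%), and they overlapped for the other 5. This depends on the scaling. On the deposited FPKM (counts scaled by gene length and library total) Cenge3:678165, Cenge3:683583, Cenge3:681185, Cenge3:579234, Cenge3:664000 and Cenge3:594910 overlapped instead of being higher. Cenge3:586213 and Cenge3:655040 were lower instead of overlapping.

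**Figure D1:**
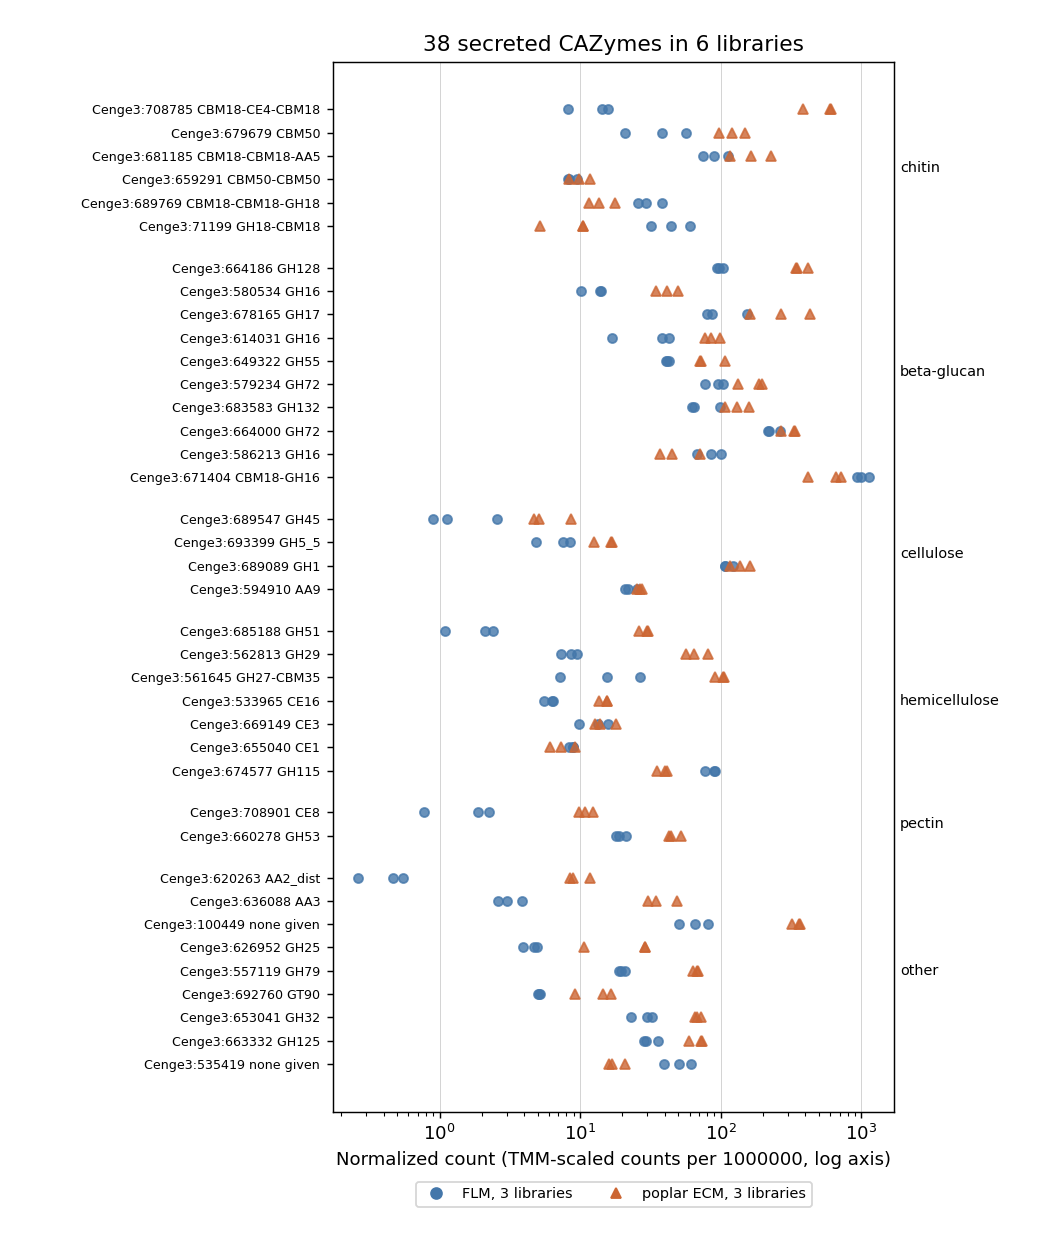
Normalized counts (TMM-scaled counts per 1000000, log axis) of the 38 genes, by family group, with 1 point for each library (circles FLM, triangles poplar ECM). On this scaling the groups are apart for 33 of the 38 genes, 28 higher in poplar ECM and 5 lower. Of all tested genes 22.2% were apart and higher, and 21.4% apart and lower. Cenge3:708785 and Cenge3:620263 show the widest gaps.

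**Figure D2:**
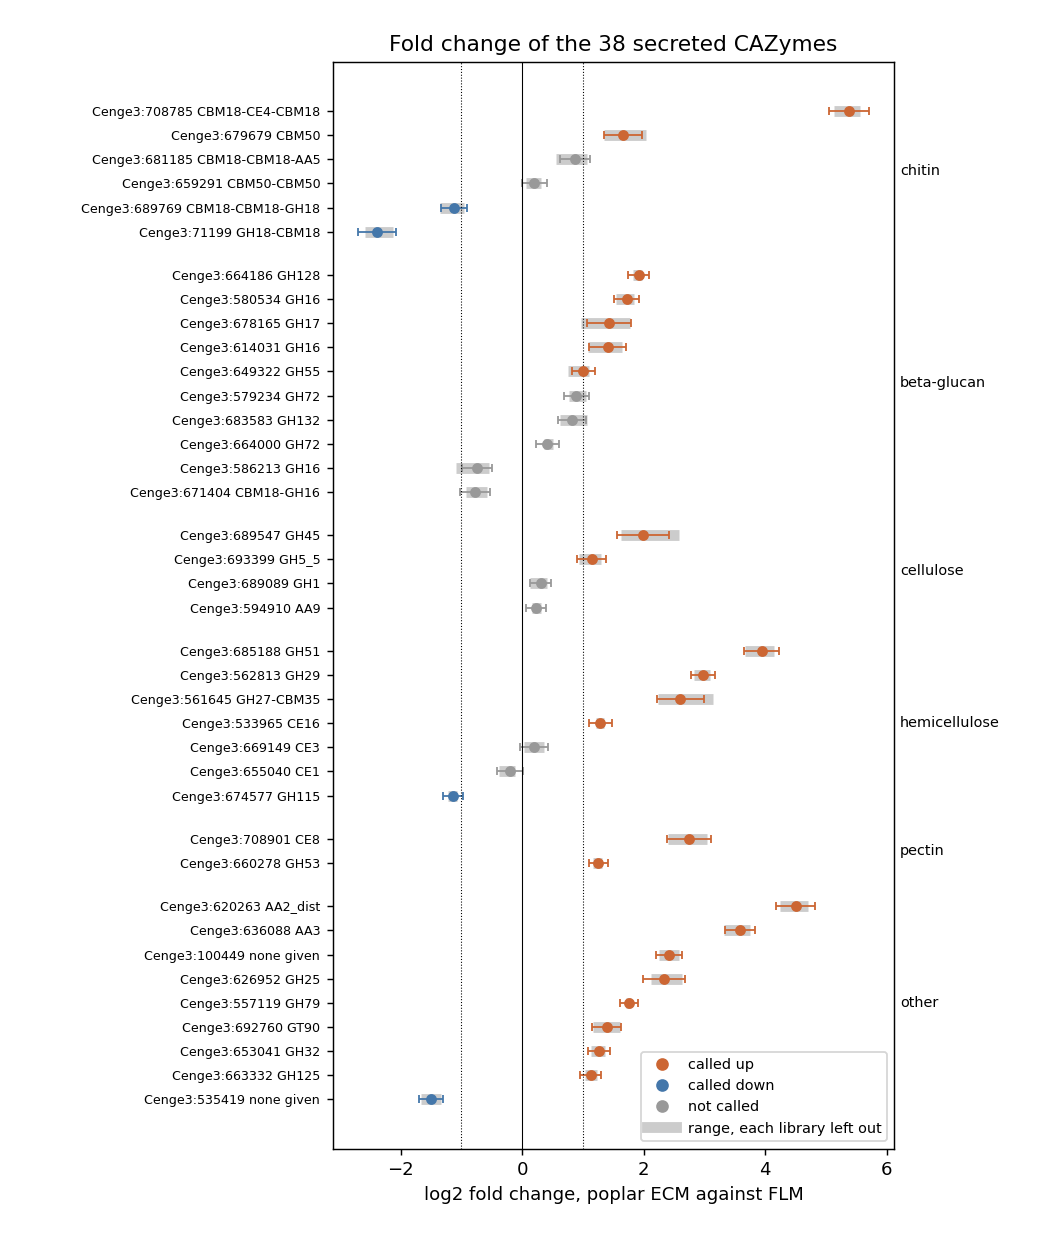
The log2 fold change of each gene in poplar ECM against FLM, with bars of 1 standard error (SE) and, in pale grey, the range when each of the 6 libraries was left out in turn. Dotted lines mark the limit of 1 on either side, and colour gives the call.

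The chitin group held the largest rise and the largest fall of the 38. Cenge3:708785 combines a CE4 domain, a family with chitin deacetylases, with chitin-binding CBM18 modules. Its normalized counts were 15.8, 14.3 and 8.15 in FLM and 606, 386 and 601 in poplar ECM (log2 fold change 5.38, SE 0.33). The GH18-CBM18 gene Cenge3:71199, of the family of fungal chitinases, lay at 32.1, 44.3 and 60.3 in FLM and at 10.5, 5.19 and 10.5 in poplar ECM (-2.39, SE 0.31). The other GH18 gene, Cenge3:689769 (CBM18-CBM18-GH18), lay at 29.6, 25.7 and 38.1 against 13.6, 11.6 and 17.7 (-1.12, SE 0.22). Both GH18 genes were thus lower in all 3 poplar ECM libraries than in any FLM library, while the CE4 gene was higher. The call of Cenge3:689769 was lost without FLM replicate 3 (-0.96) or poplar ECM replicate 2 (-0.99), and with the sequencer as a term, where the fold change was -1.20.

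The ratio of 2 genes within a library does not depend on how the libraries are scaled. Counts of the CE4 gene Cenge3:708785 per count of the GH18 gene Cenge3:71199 were 0.493, 0.324 and 0.135 in the FLM libraries. The same ratio was 57.9, 74.4 and 57.2 in the poplar ECM libraries. The CE4 gene thus had fewer counts than this chitinase family gene in every FLM library and over 50 times as many in every poplar ECM library.

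CBM50 is the LysM module, which binds chitin and related oligomers, and for 2 genes of the list the family given names no other module. Cenge3:679679 (a single CBM50) lay at 20.8, 56.6 and 38.3 in FLM and at 120, 97.5 and 149 in poplar ECM, and was called up (1.66, SE 0.32). The call was lost with the sequencer as a term, at a fold change of 1.63. Cenge3:659291, with CBM50 in tandem, lay at 8.22, 9.52 and 8.40 against 8.31, 11.8 and 9.89, and its groups overlapped (0.20, SE 0.20, not called). Its sign turned under library totals only and with the sequencer as a term. Cenge3:681185 joins CBM18 modules to AA5, a family of copper radical oxidases. It lay at 90.2, 74.5 and 113 against 163, 117 and 226, just short of the limit at 0.87 (SE 0.25), and was called without FLM replicate 3 or poplar ECM replicate 2.

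Of the 10 genes in beta-glucan families, 5 were called up and none down, beside 9.94% and 3.28% of all tested genes. The median log2 fold change of the 10 was 0.95. Cenge3:664186 (GH128, endo-acting glucanases) rose furthest within the group, from 96.6, 94.0 and 105 in FLM to 418, 345 and 351 in poplar ECM (1.92, SE 0.18). Cenge3:678165 (GH17, glucanases and transglucosylases) lay at 86.7, 79.6 and 155 against 269, 161 and 432 (1.42, SE 0.36). The lowest poplar ECM value of this GH17 gene was close to the highest FLM value, and its call was lost when any 1 of 4 libraries was left out (FLM replicates 1 and 2, poplar ECM replicates 1 and 3), with a lowest fold change of 0.96. It was also lost with the sequencer as a term (1.33).

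GH16 holds glucanases and, in yeast, the Crh enzymes that join chitin to glucan, and its 4 genes here did not move together. Cenge3:580534 rose from 13.9, 14.2 and 10.2 to 34.7, 41.7 and 50 (1.72, SE 0.20). Cenge3:614031 rose from 16.9, 38.4 and 43.2 to 98.5, 85.8 and 76.8 (1.41, SE 0.30). Neither group pair overlapped, although FLM replicate 1 of Cenge3:614031 lay well under the other FLM libraries and its call was lost with the sequencer as a term, at a fold change of 1.58. Cenge3:586213 lay at 86, 68.3 and 101 against 45.3, 36.8 and 70.9 (-0.74, SE 0.25, not called) and was called down without poplar ECM replicate 3 (-1.09) and under library totals only (-1.04). Counts of Cenge3:580534 per count of Cenge3:586213 were 0.162, 0.208 and 0.101 in FLM and 0.765, 1.13 and 0.705 in poplar ECM, so that the ratio of these GH16 genes was higher in poplar ECM whatever the scaling. Such ratios were apart between FLM and poplar ECM for 4 of the 6 pairs of GH16 genes and overlapped for 2, Cenge3:586213 with Cenge3:671404 and Cenge3:580534 with Cenge3:614031.

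The fourth GH16 gene, Cenge3:671404 (CBM18-GH16), had the highest level of the 38 in both groups. Its normalized counts were 993, 934 and 1132 in FLM and 711, 419 and 657 in poplar ECM (-0.78, SE 0.24). The poplar ECM libraries were all lower, but the change was short of the limit and was called down under library totals only (-1.11). It overlaps a neighbouring gene of the annotation by 256 bp, and that neighbour was not tested because of low counts. It made up 56.7% of the summed normalized counts of the beta-glucan group in FLM and 27.9% in poplar ECM.

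The remaining beta-glucan genes lay near the limit or well short of it. Cenge3:649322 (GH55, exo-acting glucanases) was the called gene nearest the limit, at 1.00 (SE 0.19). Its call was lost under 11 of 15 other settings, DESeq2 among them. The nearest genes that were not called were the GH72 gene Cenge3:579234, at 0.89 (SE 0.20), and the AA5 gene above. GH72 enzymes elongate glucan chains in the fungal wall, and the other GH72 gene, Cenge3:664000, lay at 265, 221 and 217 against 335, 336 and 268 (0.42, SE 0.19). Cenge3:683583, of the SUN family GH132, was at 0.82 (SE 0.23). None of these 3 was called, but Cenge3:579234 was called up without poplar ECM replicate 2 (1.05) and Cenge3:683583 without FLM replicate 3 (1.07).

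FPKM scales counts by gene length and library total. In FPKM the median in FLM was 7.67 over the 13 genes in cellulose, hemicellulose and pectin families. It was 40.8 over the 16 in chitin and beta-glucan families. The 13 lack the cellulose- and pectin-acting enzymes left out here, so these medians do not compare full sets. The ranges overlapped: the GH115 gene Cenge3:674577, at 74.0 FPKM, lay above 14 of those 16, and 3 of the 16 were under 10 FPKM. Of the 13, 8 were called up and 1 down, beside 9.94% and 3.28% of all tested genes. The median log2 fold change of the 13 was 1.26. The GH51 gene Cenge3:685188, of a family with arabinofuranosidases, rose from 2.12, 2.38 and 1.09 to 26.3, 29.7 and 30.4 normalized counts (3.94, SE 0.29). The GH29 gene Cenge3:562813, of the fucosidase family, rose from 8.66, 9.52 and 7.36 to 56.4, 80.7 and 64.8 (2.98, SE 0.20). For both, every poplar ECM library was several times above the highest FLM library.

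Cenge3:561645 (GH27-CBM35) belongs to a family with alpha-galactosidases. It lay at 7.16, 26.7 and 15.4 in FLM and at 90.9, 104 and 105 in poplar ECM (2.60, SE 0.38). The FLM libraries of this gene were spread widely (coefficient of variation 59.7%), while those of poplar ECM were close together (7.74%). Without single libraries its fold change ran from 2.24 to 3.14. Cenge3:533965 (CE16, acetylesterases) lay at 6.34, 6.41 and 5.52 against 13.6, 15.6 and 15.4 (1.28, SE 0.19), a call lost under library totals only (0.95).

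The rest of the hemicellulose group did not rise. GH115 holds alpha-glucuronidases that act on xylan, and Cenge3:674577 of this family fell from 77.1, 89.6 and 91.7 to 35.1, 41.8 and 40.4 (-1.14, SE 0.16). Cenge3:669149 (CE3) and Cenge3:655040 (CE1), of families with acetyl xylan esterases, were at 0.20 (SE 0.23) and -0.20 (SE 0.21), with groups that overlapped. The sign of Cenge3:669149 turned under library totals only, and that of Cenge3:655040 with the sequencer as a term. The 7 hemicellulose genes thus ran from -1.14 to 3.94.

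Both pectin genes were called up. CE8 holds pectin methylesterases, and Cenge3:708901 of this family rose from 0.771, 2.26 and 1.89 to 9.86, 12.3 and 10.8 (2.75, SE 0.36). GH53 holds galactanases that act on pectin side chains, and Cenge3:660278 rose from 21.2, 18.8 and 18.1 to 51.9, 44.2 and 42.6 (1.26, SE 0.16). In neither gene did the groups overlap, and the call of the GH53 gene was lost under library totals only (0.90).

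In the cellulose group, endoglucanase families rose and the other members were nearly level. Cenge3:689547 (GH45) rose from 0.899, 2.58 and 1.13 to 4.67, 5.10 and 8.56 (1.99, SE 0.42), and Cenge3:693399 (GH5_5) from 8.51, 7.51 and 4.89 to 16.6, 16.9 and 12.7 (1.14, SE 0.25). With the sequencer as a term both calls were lost, at fold changes of 1.60 for the GH45 gene and 1.25 for the GH5_5 gene. That of the GH5_5 gene was also lost under library totals only (0.78) and without FLM replicate 3 (0.94). Cenge3:594910 (AA9, lytic polysaccharide monooxygenases) lay at 22.0, 20.9 and 25.3 against 26.7, 25.4 and 27.6 (0.23, SE 0.16). Cenge3:689089 (GH1, beta-glucosidases) lay at 107, 107 and 122 against 136, 116 and 161 (0.30, SE 0.17). Neither was called, and under library totals only both had a fold change under 0.

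Among the 9 genes of other families, 8 were called up and 1 down, beside 9.94% and 3.28% of all tested genes. The groups overlapped for none of the 9, where 22.2% of all tested genes were higher and 21.4% lower without overlap. Like the whole list, these genes were chosen on such differences. Cenge3:620263, a distant relative of the AA2 peroxidases, rose from the lowest level of the 38, at 0.546, 0.467 and 0.265 normalized counts in FLM, to 8.48, 11.9 and 8.91 (4.5, SE 0.33). Cenge3:636088 (AA3, which holds oxidases and dehydrogenases of the GMC type) rose from 2.62, 3.85 and 3 to 34.4, 30.3 and 49.0 (3.58, SE 0.25). Of the genes in the list, only the CE4 gene rose by more than the first of these, and only the CE4 and GH51 genes by more than the AA3 gene besides it.

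Cenge3:626952 (GH25, a lysozyme family, also annotated as a small secreted protein) lay at 4.93, 3.95 and 4.71 in FLM and at 28.9, 29.1 and 10.6 in poplar ECM (2.34, SE 0.34). Poplar ECM replicate 3 was thus far under the other poplar ECM libraries for this gene, and the fold change without it was 2.64. Cenge3:557119 (GH79, beta-glucuronidases) had close replicates in both groups, at 18.8, 19.5 and 20.8 against 63.4, 69.4 and 67.3 (1.76, SE 0.15). The GH32, GH125 and GT90 genes Cenge3:653041, Cenge3:663332 and Cenge3:692760 were at 1.27, 1.13 and 1.39, and the calls of the GH32 and GH125 genes were lost under library totals only. GH32 is the family of invertases, GH125 holds mannosidases and GT90 holds sugar transferases.

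The 2 genes without a family went opposite ways. Cenge3:100449 lay at 66.0, 50.3 and 80.9 against 360, 323 and 366 (2.41, SE 0.21), and Cenge3:535419 at 50.6, 39.5 and 61.7 against 16.1, 16.8 and 20.9 (-1.5, SE 0.20).

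**Figure D3:**
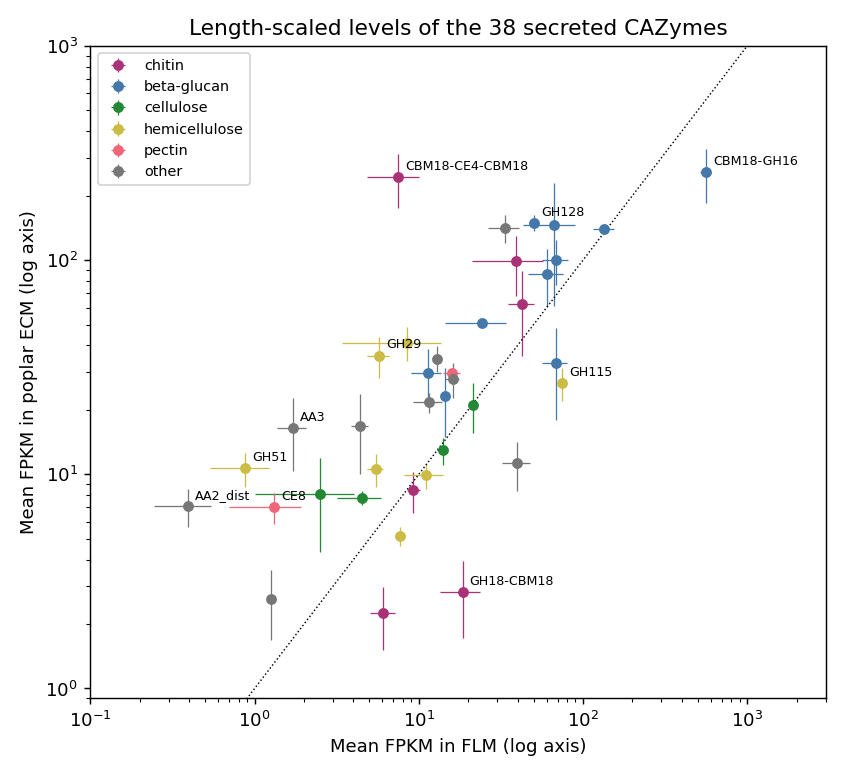
Mean FPKM of the 38 genes in FLM and in poplar ECM (log axes), with bars of 1 SD over 3 libraries and colour for the family group. Points above the dotted diagonal were higher in poplar ECM, and the CBM18-GH16 gene lies far to the right at 558 FPKM in FLM.

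Levels of different genes can be compared in FPKM. The median over the 38 genes was 13.4 FPKM in FLM and 25.0 in poplar ECM, against 17.5 and 14.4 over all genes. All genes, here and in the percentiles that follow, include 1224 with 0 counts in every library. In FLM 36 of the 38 genes had a mean over 1 FPKM, and in poplar ECM all 38 did. Cenge3:671404 had 558 ± 40.1 FPKM in FLM (SD, n = 3), above 99.2% of all genes, and 258 ± 73.5 in poplar ECM. Cenge3:708785 went from 7.43 ± 2.58, at the 33.9 percentile of all genes, to 243 ± 68.8, at the 97.1 percentile. The levels of these genes in poplar ECM differed by less than their SD.

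Large fold changes also came from genes that stayed at modest levels. Cenge3:620263 reached 7.09 FPKM in poplar ECM, the 35.6 percentile of all genes, and Cenge3:685188 reached 10.6, the 43.2 percentile. Cenge3:664186 and Cenge3:100449, with smaller fold changes, reached 149 and 142 FPKM, the 94.5 and 94.1 percentiles. The order of the genes by fold change thus differed from their order by level.

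**Figure D4:**
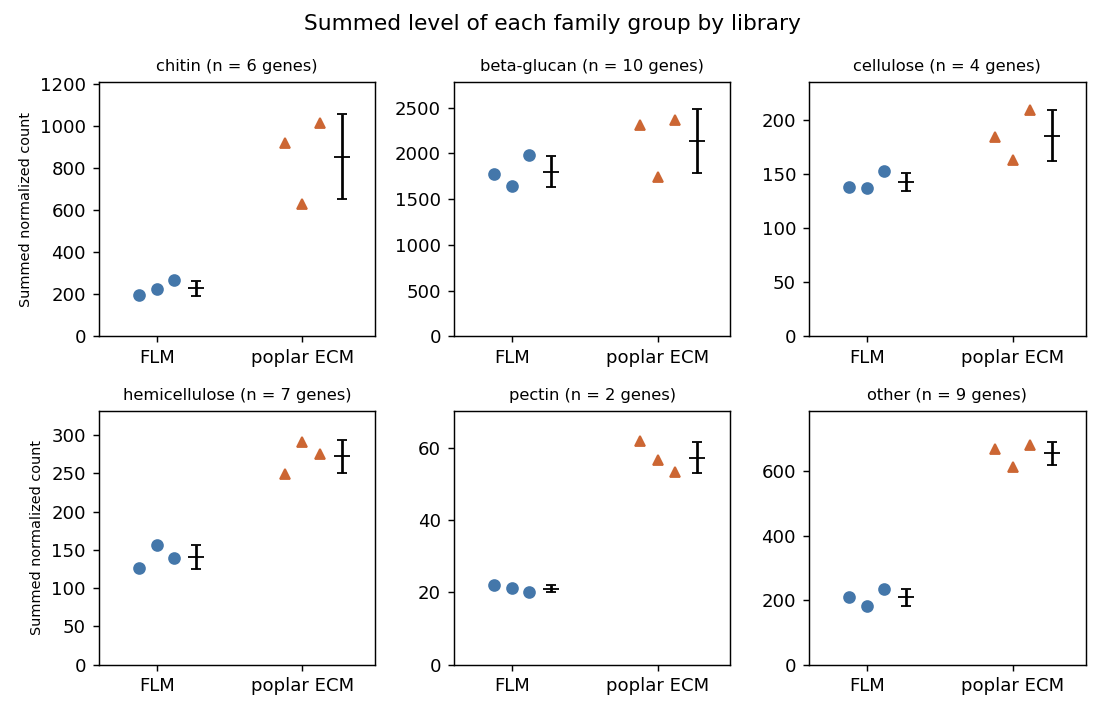
Summed normalized counts of each family group in each library (circles FLM, triangles poplar ECM, axes from 0), with the mean and 1 SD of the 3 libraries. On this scaling the groups are apart in every panel but beta-glucan. There the lowest poplar ECM sum (1737) lies within the FLM range (1648 to 1981).

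Summed over the 38 genes, normalized counts were 2542 ± 223 in FLM and 4161 ± 588 in poplar ECM (SD, n = 3), a ratio of 1.64. On the deposited FPKM, which differ in their scaling and weight genes by length, the ratio was 1.32. The chitin group went from 229 ± 34.8 to 855 ± 201, and Cenge3:708785 made up 62.1% of it in poplar ECM. The beta-glucan group changed least, from 1799 ± 169 to 2135 ± 346, with a ratio of 1.19 that was 0.962 on FPKM. The hemicellulose group went from 141 ± 15.4 to 272 ± 21.2, with a ratio of 1.94 that was 1.24 on FPKM. Its summed FPKM overlapped between the groups, at 107 to 124 in FLM and 116 to 158 in poplar ECM. The pectin group went from 21.0 ± 0.987 to 57.2 ± 4.24.

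The spread between replicates differed from gene to gene. The median coefficient of variation over the 38 was 18.4% in FLM, beside 11.2% over all tested genes, and 18.3% in poplar ECM, beside 20.2%. In FLM it ran from 2.13% (Cenge3:649322) to 59.7% (Cenge3:561645). In the 5 genes most widely spread in FLM, Cenge3:561645, Cenge3:679679, Cenge3:614031, Cenge3:689547 and Cenge3:708901, FLM replicate 1 was the lowest FLM library. Over the 38 genes FLM replicates 1, 2 and 3 were the lowest for 12, 13 and 13. Of all tested genes 33.4%, 26.4% and 40.2% had these libraries lowest. In poplar ECM, replicate 2 was the lowest for 20 of the 38 genes and replicate 3 the highest for 19, where 40.7% and 38.9% of all tested genes had these libraries lowest and highest.

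**Figure D5:**
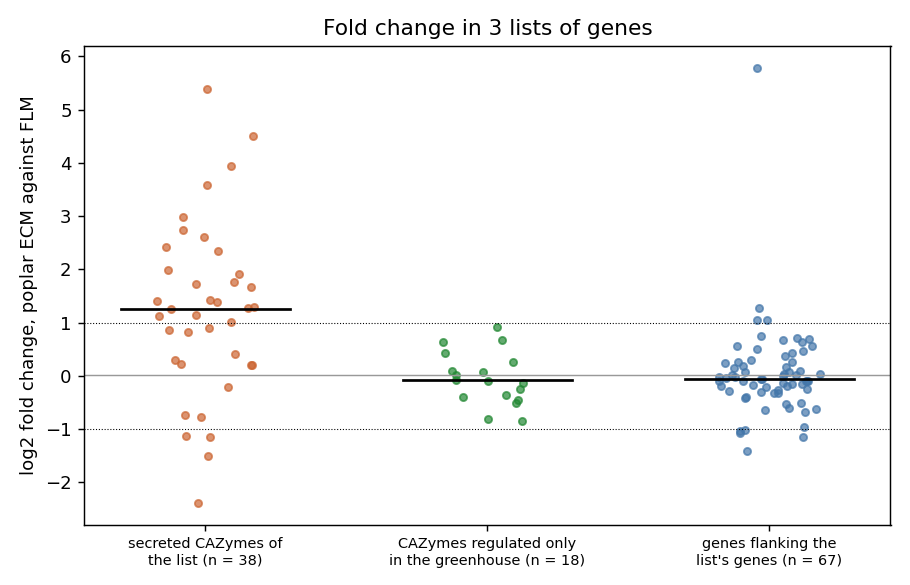
The log2 fold change in poplar ECM against FLM of 3 lists of genes, with 1 point for each gene, a black bar at each median and a grey line at the median of all tested genes. The listed CAZymes spread from -2.39 to 5.38, and the CAZymes regulated only in the greenhouse stay within the dotted limits of 1.

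Secreted CAZymes that the study marked as regulated only in its greenhouse trial served for comparison. They were chosen on other libraries and for not being regulated in vitro, so their low counts of calls follow from the choice. The same holds for their contrast with listed genes of the same family. None of the 18 was called in either direction, with a median of -0.09 and a range from -0.86 (Cenge3:620308, CE12) to 0.93 (Cenge3:589013, GH5_7). At an unadjusted p under 0.05 in edgeR's test there were 3 higher and 3 lower in poplar ECM, and DESeq2 called none. The adjusted p of that test was under 0.05 for 4 of the 18, whose fold changes stayed within the limit of 1. They hold families of the list described here, among them GH17, GH55 and AA3. The AA3 genes Cenge3:699461 and Cenge3:674801 were at -0.08 and 0.02, where the listed AA3 gene was at 3.58, and the GH55 genes Cenge3:623207 and Cenge3:671453 at -0.81 and -0.52. The GH17 genes Cenge3:655599 and Cenge3:699823 were at -0.24 and 0.43.

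Neighbours on the genome were not used to choose the list. All 38 genes were found in the RefSeq annotation of genome version 2.0, which does not name the scaffold of these genes. Scaffold ends were therefore inferred from drops in position along the gene order. The longer of the distances to the adjoining genes had a median of 2907 bp over the 38, beside 2223 bp over all genes, and the shorter one 830 bp beside 468 bp. No gene of the list adjoined another of the list. Of the 76 adjoining genes 2 are listed secreted proteins themselves, both called up: Cenge3:533440 beside Cenge3:100449, and Cenge3:248246 beside the GH16 gene Cenge3:580534. Since that list was drawn up on regulation in ECM, no test is read from their calls.

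Of the other 74 adjoining genes, 67 were tested, and 4 were called up (5.97%) and 5 down (7.46%), beside 9.94% and 3.28% of all tested genes. Their median log2 fold change was -0.06. The largest was that of Cenge3:689464, at 5.79 (SE 0.38, adjusted p = 2.5e-06 in edgeR's test), which adjoins the GH72 gene Cenge3:579234 that was itself not called. The genes on either side of the GH115 gene Cenge3:674577 went opposite ways, Cenge3:684975 at -1.02 and Cenge3:545381 at 1.04. The neighbours of the CE4 gene Cenge3:708785 were at 0.25 and 0.47, and the nearer one lies 60 bp away.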

How the data were processed

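RNA-Seq of 3 FLM and 3 poplar ECM libraries was used, grouped by the submitters' labels. Reads were filtered by the authors and mapped against the transcripts of genome version 2.0, with HISAT 0.1.4 and featureCounts named in the submitters' processing notes, and only primary hits in the reverse orientation were counted. The deposited counts are raw and whole. The deposited FPKM were made by the authors from these counts with their sum as library size. The deposited TPM sum to 1000000 and were only checked. Counts were tested with edgeR 4.0.16 (R 4.3.3, TMM, quasi-likelihood) on genes that reached 10 counts in 3 or more libraries. The SE was taken as |log2 fold change| divided by the root of F. The biological coefficient of variation was 0.201. The code was tested on simulated counts. DESeq2 (version 1.42.0 here, the tool the study used in another version) was an alternative, as were other normalizations, filters and thresholds, each library left out, a replicate block, the sequencer as a term and, chosen after seeing the data, libraries thinned by binomial sampling to the smallest total. Membership and families come from the study's lists, from which no values were used. All genes of the list could be named, and of the comparison genes the 3 with the largest rise and fall among called ones. Other genes named were chosen after their values were seen. The genes and lists were chosen with earlier results of these data known. A planned comparison with paralogs was not run, since no protein sequences were used here. Summaries and figures used Python 3.11.15 and matplotlib 3.10.9. The labels give biological replicates but not separate plants or cultures, so p-values measure the spread between these samples. Depth sets a floor: 0 counts allow up to 0.0574 counts per 1000000 in FLM replicate 3 and 0.268 in poplar ECM replicate 3 (3 counts, counting error only).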

Additional observations from a re-analysis of the deposited data

How the results depend on the processing

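Of the 27 calls among the 38 genes, 13 (12 up, 1 down) were kept under all 15 other settings, and 16 under the 14 other than glmTreat. Testing against a log2 fold change of 1 (glmTreat) left 12 called up and 1 down in place of 23 and 4, and over all 12692 tested genes 541 and 61 in place of 1262 and 416. With each library left out in turn, 21 to 25 were called up and 3 to 5 down, and 23 of the 27 calls were kept in every such fit. Under library totals only, where the median of all genes moved to -0.33, 17 were called up and 6 down, which lowered the share of up among the called from 85.2% to 73.9%, and 2 comparison genes were called down. Over all tested genes 838 were then called up and 1217 down. In that setting the log2 fold change reversed to -0.11 for Cenge3:594910, -0.14 for Cenge3:659291, -0.16 for Cenge3:669149 and -0.022 for Cenge3:689089. With the sequencer as a term, 17 were called up and 3 down (957 and 199 over all tested genes), and Cenge3:655040 reversed to 0.084 and Cenge3:659291 to -0.069. The fold changes of that fit rest on poplar ECM replicate 1 alone against FLM. The replicate numbers were not found to pair the samples (correlations of deviations 0.04, 0.24 and 0.29 for replicates 1, 2 and 3, and FLM replicate 1 correlated best with poplar ECM replicate 2), and with a replicate block 22 were called up and 4 down. Thinned to the smallest total, 22 and 4 were called. On deposited FPKM the log2 ratio of summed levels moved to -0.055 from 0.25 for beta-glucan, 0.30 from 0.95 for hemicellulose, 1.21 from 1.65 for other families, 1.09 from 1.45 for pectin and 0.40 from 0.71 for all 38. The cause was not tested. Over the 38 genes and 15 settings, 515 of 570 fold changes kept direction and side of the threshold, 42 lost the call, 7 gained one and 6 reversed. The planned paralog comparison was not run.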
